A study of Mus musculus with 2 samples.

Results

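The genes described here are 9 that carry glucose into the cell and through the regulated steps of glycolysis: the glucose transporters Slc2a1 and Slc2a3, the hexokinases Hk1 and Hk2, the phosphofructokinases Pfkl and Pfkp, the pyruvate kinase Pkm, and the lactate dehydrogenase subunits Ldha and Ldhb. They were taken by symbol from the 32285 features listed in both matrices, and all 9 were present. Mouse D3 embryonic stem cells had been differentiated towards cardiomyocytes and collected on day 6, the cardiovascular progenitor stage, for droplet single-cell RNA sequencing. The control library came from D3 cells labelled wild type, and the other library from D3 cells labelled Zbtb16 knockout, which lack a zinc finger transcription factor and had the same treatment and day. How many clones were used, and how the gene was disrupted, are not given in the sources used here. Cells are barcodes with at least 15000 UMIs (molecular identifiers, each marking 1 captured RNA molecule) and at most 10% of them from mitochondrial genes, which left 6354 control and 9449 knockout cells. With 1 library per group no difference has a replicate check, none was tested, and every interval below is an exact 95% interval that covers counting error only.

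The libraries differed in depth and makeup. The median was 37324 UMIs per control cell and 30513 per knockout cell, and the median mitochondrial share was 4.22% against 5.02%. Levels are given as CPM, the UMIs of a gene per 1000000 UMIs of the cells summed. Zbtb16, the check of the labels, came to 22.2 CPM in control cells (6507 UMIs) and 0.994 CPM in knockout cells (341 UMIs). The libraries shared 16 of their kept barcodes. Cell states below are gates on the summed CPM of marker lists, and a cell belongs to a state when it passed exactly 1 of 9 gates. A gate is a range of marker level and not a proven cell type. Near-cut cells, from 0.8 times the cut to the cut divided by 0.8, were few for endothelial cells (23 control, 45 knockout) and many for mesenchymal cells (468 and 1681), proepicardial cells (397 and 715) and the gate on second heart field markers described next (1150 and 166). That gate was 81.3% Hoxb1 in its control cells and 82.5% in its knockout cells by level, so its cells are called Hoxb1-gated here (Hoxb1 and Isl1 in the plots). Cardiomyocyte-gated cells made up 18.2% of the control library (1156 cells) and 0.19% of the knockout library (18 cells), so they could not be compared between libraries. The comparison within states rests on endothelial (264 control and 391 knockout cells), endoderm (77 and 177), mesenchymal (430 and 2474), Hoxb1-gated (701 and 117) and proepicardial cells (205 and 288), and on cells that passed no gate (2958 and 4846). The same gate was led by different markers in the libraries. Proepicardial cells were led by Upk3b in the control (204 CPM, 50% of the list's level) and by Krt19 in the knockout (226 CPM, 55.0%), where Upk3b stood at 107 CPM. Col3a1 made up 48.6% of the mesenchymal list's level in control cells, followed by Lum, and 25.5% in knockout cells, followed by Postn. Their part in the differences below was not tested. Orders and spans over states cover states with at least 50 cells in a library, so 20 control pluripotent cells and 29 knockout haematopoietic cells stand outside them and are given apart.

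Glucose enters most cells by facilitated diffusion through the transporter proteins that Slc2a genes encode. Slc2a1 encodes the widespread basal carrier, and Slc2a3 a carrier of high affinity known from neurons, early embryos and trophoblast. Hexokinase traps glucose by phosphorylating it, phosphofructokinase commits it to glycolysis, and pyruvate kinase makes pyruvate. Lactate dehydrogenase is a tetramer of A and B subunits, of which the A-rich forms are known from glycolytic tissue such as skeletal muscle and the B-rich forms from heart muscle. Pluripotent cells are known for a high glycolytic rate, and cardiomyocytes turn to oxidative metabolism as they mature.

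Over all kept cells the members fell into 3 sets. Both transporters were higher in the knockout library, Ldhb was lower, and the 6 other members differed by less than 1.5-fold. With 1.5-fold as a rule of size, 2 of 9 members were higher and 1 of 9 was lower. Of the 3718 genes that reached 50 CPM in one library or both, 14.3% were higher and 4.57% were lower by the same rule. Hk1, Hk2 and Pfkp stayed under 50 CPM in both libraries and are not among them. Of the 10289 genes at 5 CPM or more, which include all 9 members, 12.7% were higher and 6.75% were lower. The median log2 ratio of knockout to control, taken on CPM plus 1, was 0.01 over the 9 members and 0.01 over those 3718 genes. The log2 ratio of Slc2a1 lay at percentile 98.4 of these genes, that of Slc2a3 at 99.3 and that of Ldhb at 1.34.

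**Figure D1:**
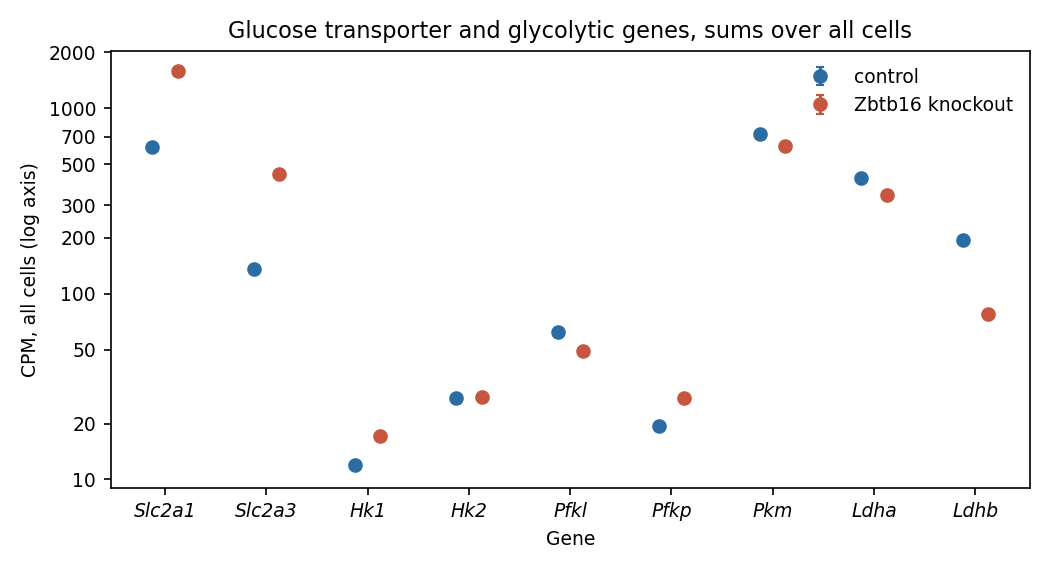
Summed level of each of the 9 genes in all kept cells, in CPM on a log axis, for the control and the Zbtb16 knockout library, with exact 95% intervals for counting error. Slc2a1 and Slc2a3 sit higher in the knockout library and Ldhb lower, while Hk2 stands at 27.6 and 27.8 CPM.

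Slc2a1 stood at 614 CPM among control cells (interval 611 to 617) and at 1589 CPM among knockout cells (1585 to 1594), which is 2.59-fold higher and a log2 ratio of 1.37. Its distribution over cells differed as well. The control median was 215 CPM per cell, with the 10th percentile at 31.3 and the 90th at 1568. In the knockout library the median was 1534 CPM, with the 10th percentile at 230 and the 90th at 2873. The 90th percentile of the control thus stood near the knockout median, and 90.5% of knockout cells lay above the control median. After each cell was thinned to 15000 UMIs, 24.0% of control cells and 74.5% of knockout cells held at least 12 Slc2a1 UMIs. Without thinning, 23.6% and 73.9% of cells stood at the matching level of 800 CPM or more. Fewer than 2 UMIs remained after thinning in 31.9% of control and 4.50% of knockout cells. The 10% of control cells with the highest Slc2a1 CPM held 41.7% of its UMIs, against 22.9% in the knockout library.

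Slc2a3 stood at 137 CPM among control cells (135 to 138) and at 444 CPM among knockout cells (441 to 446), which is 3.25-fold higher and a log2 ratio of 1.69. The median cell held 66.2 CPM among control cells and 291 CPM among knockout cells. Thinned to 15000 UMIs, the median was 1 UMI against 4. The gene was concentrated in few cells: in the control library the 77 endoderm-gated cells held 19.1% of all its UMIs, and in the knockout library 177 such cells held 14.0%. Cells that passed the endoderm gate, alone or with another gate, numbered 111 in the control and 203 in the knockout. Without them the log2 ratio of Slc2a3 was 1.92, a setting added after the data were seen.

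**Figure D2:**
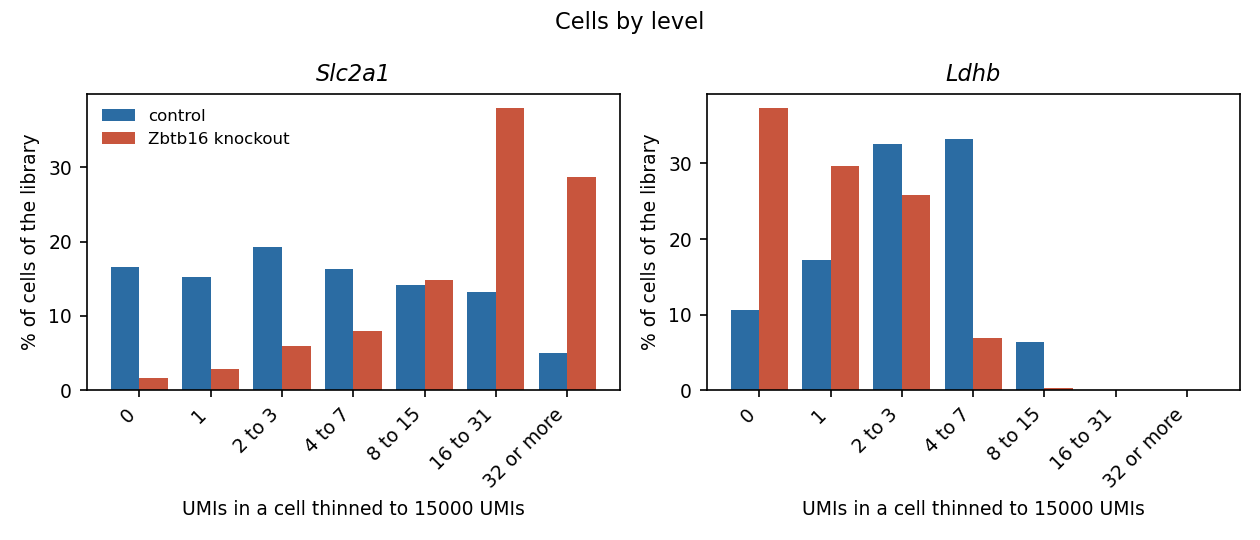
Percent of cells (vertical axes, from 0) by the number of UMIs of Slc2a1 and Ldhb left in a cell thinned to 15000 UMIs, control and knockout. For Slc2a1, 28.7% of knockout cells and 4.99% of control cells hold 32 or more, and for Ldhb 37.4% of knockout and 10.7% of control cells hold none.

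Over states of at least 50 cells, Slc2a1 spanned 8.01-fold in the control library and 8.43-fold in the knockout library. Proepicardial cells were highest in both, at 1265 and 2155 CPM. In the control they were followed by mesenchymal cells at 1150 CPM, cells with no gate at 754, endoderm at 480 and Hoxb1-gated cells at 369. Cardiomyocyte-gated cells (162 CPM) and endothelial cells (158 CPM) came last among control states of at least 50 cells, and did not differ beyond their counting intervals. The 20 control pluripotent cells stood at 124 CPM (109 to 142). In the knockout library the order had cells with no gate at 1817 CPM, mesenchymal cells at 1780 and Hoxb1-gated cells at 822. Next came posterior mesoderm cells, gated on posterior Hox genes, Cdx2 and Pitx1, at 749 CPM. Endoderm followed at 643 CPM, endothelial cells at 286 and pluripotent cells at 256.

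Between libraries, Slc2a1 was at least 1.5-fold higher in 5 of the 6 populations. The log2 ratio was 1.27 in cells with no gate, 1.15 in Hoxb1-gated cells, 0.85 in endothelial, 0.77 in proepicardial and 0.63 in mesenchymal cells. In endoderm it was 0.42, under the 1.5-fold rule. With the gate cuts doubled the mesenchymal ratio was 0.40, and with cells that passed other gates included it was 0.53. With the cuts halved the proepicardial ratio was 0.57 and the endoderm ratio 0.72. Within these populations the share of all genes at least 1.5-fold higher ran from 9.74% in endothelial cells to 14.5% in cells with no gate, with 12% in Hoxb1-gated, 12.6% in proepicardial, 11.6% in mesenchymal and 14.3% in endoderm cells.

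Slc2a3 had another order over states. Endoderm was highest by far, at 1313 CPM among control cells (1284 to 1343) and 2130 CPM among knockout cells (2101 to 2159). The other control states of at least 50 cells stood between 64.8 CPM in Hoxb1-gated cells and 174 CPM in proepicardial cells, and endothelial (66.7) and cardiomyocyte-gated cells (66.8) could not be told from the lowest by their intervals. The 20 control pluripotent cells stood at 291 CPM (267 to 317). In the knockout library proepicardial cells came after endoderm at 561 CPM, followed by posterior mesoderm cells at 483 CPM and cells with no gate at 420. Mesenchymal cells stood at 354 CPM, pluripotent cells at 324, Hoxb1-gated cells at 130 and endothelial cells at 101. The knockout level was at least 1.5-fold higher in 6 of 6 populations. The log2 ratio was 1.96 in cells with no gate, 1.69 in proepicardial, 1.37 in mesenchymal, 0.99 in Hoxb1-gated, 0.70 in endoderm and 0.59 in endothelial cells. The endothelial value fell under the rule in 4 of the alternatives tried, with 0.43 as the lowest, and the endoderm value with doubled cuts (0.58). With doubled cuts, which left 24 control and 35 knockout cells, the proepicardial value was 0.37.

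**Figure D3:**
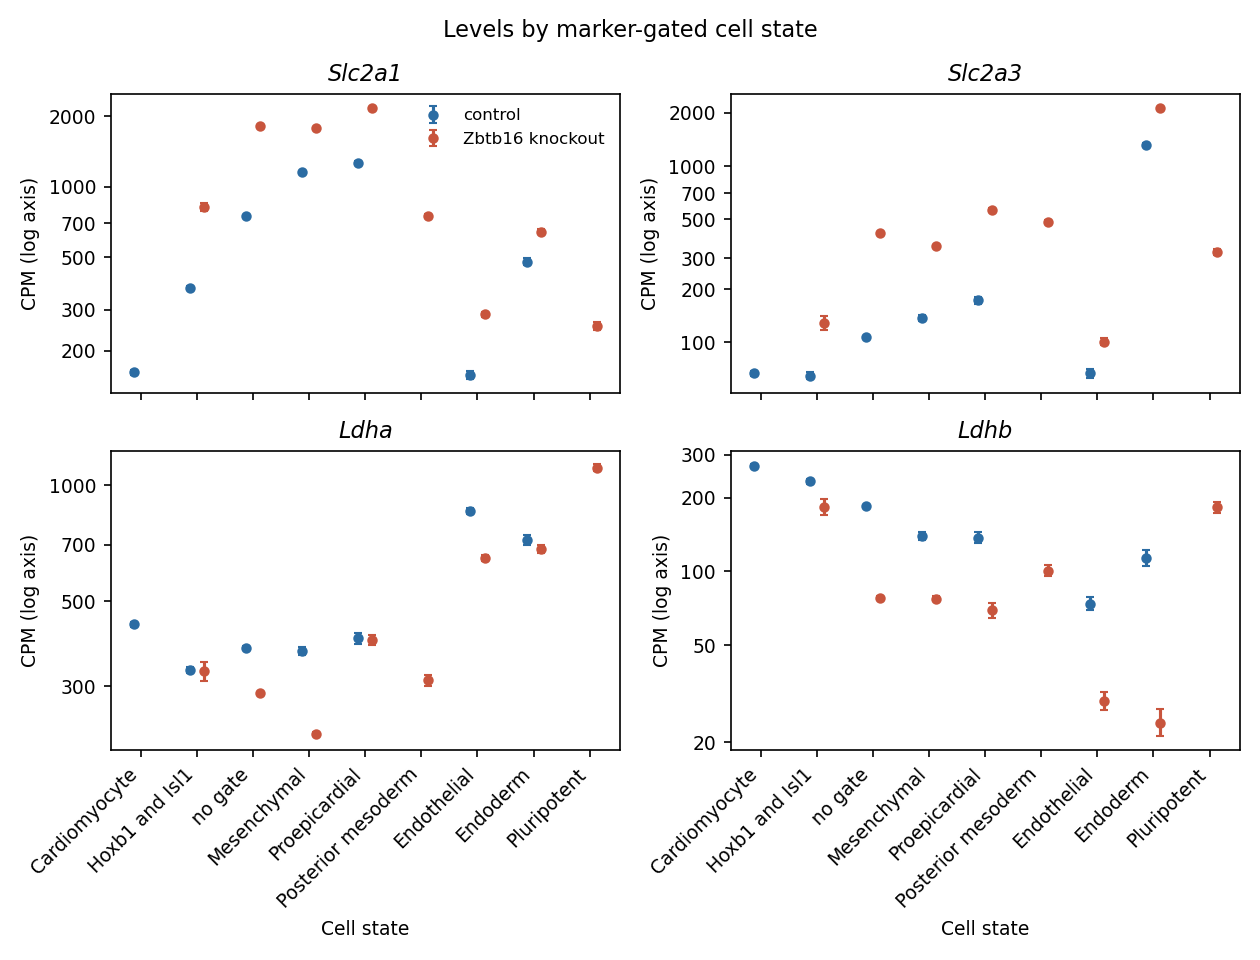
Level of Slc2a1, Slc2a3, Ldha and Ldhb in CPM on log axes, by marker-gated state, for states with at least 50 cells in a library, with exact 95% intervals for counting error. Slc2a1 peaks in proepicardial cells, Slc2a3 in endoderm cells and Ldhb in control cardiomyocyte-gated cells, and the knockout points lie above the control for the transporters and below for Ldhb.

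Slc2a1 was lower in cells with more cardiomyocyte marker RNA. In the control library cells were divided by the summed CPM of 8 cardiomyocyte markers. Slc2a1 stood at 932 CPM below 100 CPM of markers, 924 from 100 to 300, 598 from 300 to 1000, 279 from 1000 to 2500, 172 from 2500 to 10000 and 132 at 10000 or more. The lowest range was 7.08-fold above the highest. Slc2a3 stood at 199 CPM in the lowest marker range and 78.2 CPM in the highest, with its minimum of 64.9 CPM from 1000 to 2500. Ldhb went the other way, from 128 CPM through 151, 207, 240 and 265 to 275 CPM, a 2.15-fold span. Hk1 stood between 9.97 and 12.9 CPM in the first 5 ranges and at 26.1 CPM in the sixth. Median depth went from 40371 UMIs in the lowest marker range to 27722 in the highest, and its part in these levels was not tested.

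At equal marker ranges the libraries still differed. Below 100 CPM of cardiomyocyte markers, with 1302 control and 7953 knockout cells, Slc2a1 was 1.70-fold higher in the knockout library, Slc2a3 2.13-fold higher and Ldhb 1.69-fold lower. All 3 differences over all cells were thus larger than in this range. From 100 to 300 CPM the fold for Slc2a1 was 1.87, from 300 to 1000 it was 2.22 and from 1000 to 2500 it was 3.4, the last over 882 control and 55 knockout cells. For Slc2a3 the folds in these 3 ranges were 2.81, 4.27 and 3.99. For Ldhb the control stood 1.77-, 1.92- and 1.83-fold above the knockout. Ldha changed direction over the ranges. It was 1.37-fold lower in the knockout below 100 CPM and 1.28-fold lower from 100 to 300. From 300 to 1000 CPM it was 1.24-fold higher, and from 1000 to 2500 it was 1.91-fold higher (394 against 753 CPM). Pfkp was 1.57-fold and 2.62-fold higher in the last 2 of these ranges. Hk1, Hk2, Pfkl and Pkm differed by less than 1.5-fold in each range.

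**Figure D4:**
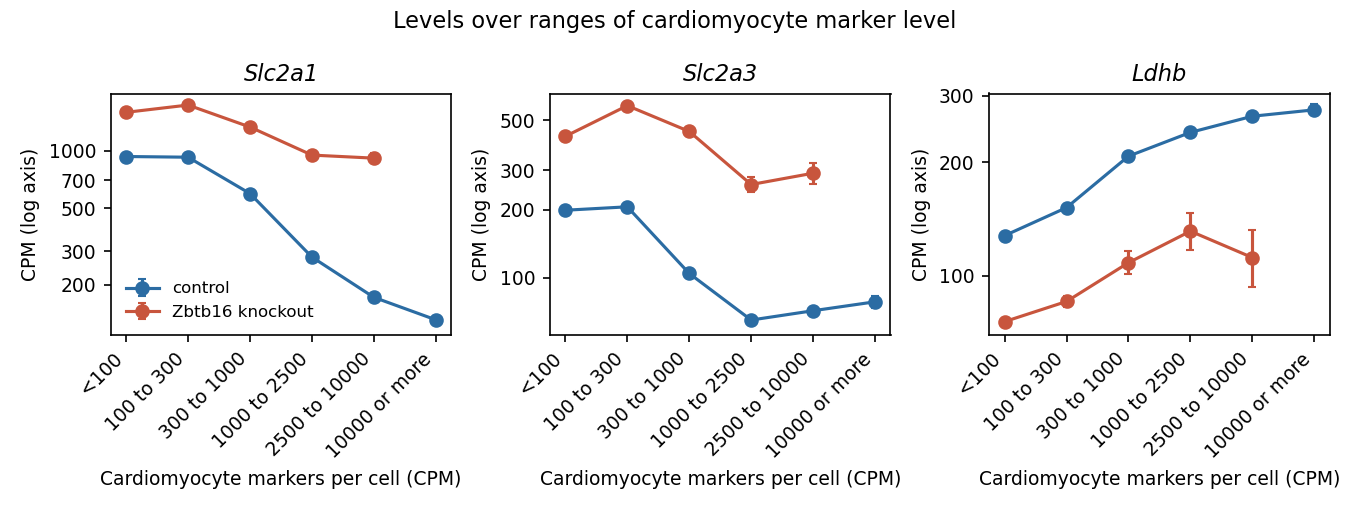
Levels of Slc2a1, Slc2a3 and Ldhb in CPM (log axes) over ranges of the summed cardiomyocyte marker level of a cell, control and knockout, where a range has at least 20 cells, with exact 95% intervals for counting error. Control Slc2a1 goes from 932 to 132 CPM and control Ldhb from 128 to 275 CPM as the marker level rises.

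Depth itself was related to the levels. In control cells of 15000 to 20000 UMIs Slc2a1 stood at 179 CPM, and in those of 45000 or more at 709 CPM, while the knockout values were 1287 and 1586 CPM. Ldhb in the same control ranges stood at 362 and 165 CPM, and in the knockout at 116 and 69.8 CPM. Among cells of 30000 to 45000 UMIs, 2111 control and 2838 knockout, Slc2a1 stood at 608 against 1655 CPM, Slc2a3 at 117 against 443 CPM and Ldhb at 194 against 74.5 CPM. Free RNA, read from barcodes with 10 to 100 UMIs, held Slc2a1 at 444 CPM among control cells and 1217 CPM among knockout cells, Slc2a3 at 160 and 485 CPM, and Ldhb at 192 and 74.1 CPM. Free RNA therefore differed between libraries in the same direction as the cells did, and its part in the levels of low states was not tested. Over 10286 genes at 5 CPM or more, the log2 ratio had a Spearman rho of 0.43 with transcript length across genes, which are not independent replicates. After correction for length and GC content, the log2 ratio was 1.42 for Slc2a1, 1.38 for Slc2a3 and -1.03 for Ldhb.

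The hexokinases were low in most cells. Hk1 is the broadly expressed form and Hk2 the inducible form of muscle, fat and many growing cells. Hk1 stood at 11.9 CPM among control cells (11.5 to 12.3) and 17.2 CPM among knockout cells (16.8 to 17.7), a log2 ratio of 0.50. Hk2 stood at 27.6 CPM (27.0 to 28.2) and 27.8 CPM (27.2 to 28.4), with overlapping intervals. Cells that passed the cardiomyocyte gate, alone or with another gate, numbered 1489 in the control and 28 in the knockout. Without them the Hk1 ratio was 0.60, which passes 1.5-fold. Over control states of at least 50 cells, Hk2 stood between 24.5 CPM in Hoxb1-gated and 32.7 CPM in proepicardial cells, and every neighbour in this order overlapped the next, while the 20 pluripotent cells stood at 44.5 CPM (35.4 to 55.3). Among states of at least 50 cells, Hk1 was highest in endothelial cells in both libraries, at 17.4 and 25.4 CPM, and lowest in endoderm, at 7.58 and 8.90 CPM. Proepicardial cells were the only population where Hk1 passed 1.5-fold (9.67 and 15.4 CPM, log2 0.62), and it missed that size in 3 alternatives.

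Of the UMIs of Hk1 and Hk2, Hk2 held 69.8% in the control (69.0 to 70.7) and 61.7% in the knockout (61.0 to 62.5), a difference of -8.07 percentage points. The Hk2 share was lower in the knockout in each of the 6 populations, from -0.90 points in endoderm to -10.2 points in endothelial cells (61.3% against 51.1%). The intervals of the libraries overlapped in 3 of the 6, endoderm, Hoxb1-gated and proepicardial cells, and with halved cuts the endoderm difference was 2.65 points (0.33 points in cells of at least 30000 UMIs). In the control the share was lowest at 50.9% in cells with 10000 CPM or more of cardiomyocyte markers, the range where Hk1 was highest. Hkdc1, a hexokinase gene outside this pair, stood in endoderm at 16.5 CPM among control cells and 25.2 CPM among knockout cells. That is above Hk1 there (7.58 and 8.90 CPM), so the endoderm shares do not cover all hexokinase UMIs. Hkdc1 is named after its value was seen.

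Phosphofructokinase Pfkl, the liver-type subunit, stood at 61.9 CPM among control cells (61.0 to 62.8) and 49.1 CPM among knockout cells (48.4 to 49.9), a log2 ratio of -0.33. Pfkp, the platelet-type subunit, stood at 19.3 CPM (18.8 to 19.8) and 27.4 CPM (26.9 to 28.0), a log2 ratio of 0.49 that was 0.10 after the length and GC correction. Pfkl passed 1.5-fold in mesenchymal cells only among the 6 populations (66.0 against 39.0 CPM, log2 -0.74), and Pfkp in none. Endoderm had the lowest Pfkp level in both libraries, at 6.20 CPM from 36 UMIs and 8.30 CPM from 83 UMIs. Pfkp held 23.8% of the UMIs of this pair in the control (23.2 to 24.3) and 35.9% in the knockout (35.3 to 36.4). The difference was 14.5 percentage points in mesenchymal, 13.8 in ungated and 12.8 in proepicardial cells. It was 1.45 points in endothelial cells, where the share was 16.1% and 17.6% with overlapping intervals. Pfkm, a phosphofructokinase gene outside this pair, stood at 22.0 CPM among control cells, above Pfkp, and at 18.1 CPM among knockout cells. It is named after its value was seen.

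Pkm, which gives rise to the M1 and M2 splice forms that a gene-level count does not separate, had the smallest span of the members over control states of at least 50 cells. It stood at 726 CPM among control cells (722 to 729) and 627 CPM among knockout cells (625 to 630), a log2 ratio of -0.21. These states lay between 622 CPM in mesenchymal and 785 CPM in endoderm cells, a 1.26-fold span, and the 20 control pluripotent cells stood above them at 1165 CPM (1117 to 1216). In the knockout library the span was 3.19-fold, from 488 CPM in mesenchymal cells to 1558 CPM in the 169 pluripotent cells. Pkm passed 1.5-fold between libraries in 0 of the 6 populations. The same pluripotent cells were highest for Pfkl among knockout states of at least 50 cells (143 CPM), and for Ldha (1112 CPM).

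Ldha stood at 421 CPM among control cells (418 to 423) and 341 CPM among knockout cells (339 to 343), a log2 ratio of -0.30. Among control states of at least 50 cells it was highest in endothelial cells (859 CPM) and endoderm (722 CPM), and it stood between 331 and 435 CPM in the others. The 20 control pluripotent cells stood at 818 CPM (777 to 861). In the knockout, endoderm stood at 685 CPM and endothelial cells at 649 CPM, and mesenchymal cells were lowest at 225 CPM. Mesenchymal cells were also the only compared population in which Ldha passed 1.5-fold between libraries (371 against 225 CPM, log2 -0.72). Over ranges of cardiomyocyte marker level the direction of the Ldha difference changed, as given above.

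Ldhb stood at 194 CPM among control cells (192 to 195) and 78.1 CPM among knockout cells (77.2 to 79.1), which is 2.48-fold lower and a log2 ratio of -1.30. The median cell held 192 CPM among control cells and 64.6 CPM among knockout cells, and 8.56% of knockout cells lay above the control median. Thinned to 15000 UMIs, 27.9% of control cells and 67.0% of knockout cells held fewer than 2 Ldhb UMIs. Over control states of at least 50 cells the order was cardiomyocyte-gated cells at 269 CPM, Hoxb1-gated at 233, no gate at 185, mesenchymal at 140, proepicardial at 138, endoderm at 114 and endothelial at 73.9 CPM, and of these neighbours only mesenchymal and proepicardial overlapped. The 20 control pluripotent cells stood at 314 CPM (289 to 341). Over knockout states of at least 50 cells the top places were taken by Hoxb1-gated (183 CPM) and pluripotent cells (183 CPM), and the bottom by endothelial (29.6 CPM) and endoderm cells (24.1 CPM). Ldhb was at least 1.5-fold lower in 5 of the 6 populations, with log2 ratios of -2.19 in endoderm, -1.29 in endothelial cells, -1.23 in cells with no gate, -0.98 in proepicardial and -0.85 in mesenchymal cells. In Hoxb1-gated cells it was -0.35. The share of all genes at least 1.5-fold lower was 3.66% in endoderm, 4.7% in endothelial, 4.32% in ungated, 2.73% in proepicardial, 2.59% in mesenchymal and 3.67% in Hoxb1-gated cells.

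Ldha held 68.5% of the UMIs of Ldha and Ldhb in the control (68.2 to 68.7) and 81.3% in the knockout (81.1 to 81.6), a difference of 12.9 percentage points. Below 100 CPM of cardiomyocyte markers the shares were 78.1% and 81.5%, so the difference there was 3.37 points. Within states the Ldha share of the control was lowest in Hoxb1-gated cells (58.6%) and cardiomyocyte-gated cells (61.8%) and highest in endothelial cells (92.1%). In the knockout it was 64.1% in Hoxb1-gated, 95.6% in endothelial and 96.6% in endoderm cells, where the control had 86.4%. Mesenchymal cells differed by 1.82 points, and by -0.27 points with doubled cuts. The difference was 11.5 points in cells with no gate (67.1% against 78.6%) and 10.7 points in proepicardial cells (74.4% against 85.1%).

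Slc2a3 held 18.2% of the UMIs of the transporter pair in the control (18.0 to 18.4) and 21.8% in the knockout (21.7 to 21.9). Endoderm was the only compared state in which Slc2a3 held most of the pair, at 73.2% in the control and 76.8% in the knockout. The share was also above 50% in pluripotent cells of the knockout, at 55.9% (54.5 to 57.3), and was 70.1% in the 20 pluripotent cells of the control. It was lowest in control mesenchymal cells (10.6%), where the knockout had 16.6%. The direction of the difference was not the same in every state: it was 8.59 points in proepicardial and -3.62 points in endothelial cells, and with doubled cuts the proepicardial value was -7.70 points.

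**Figure D5:**
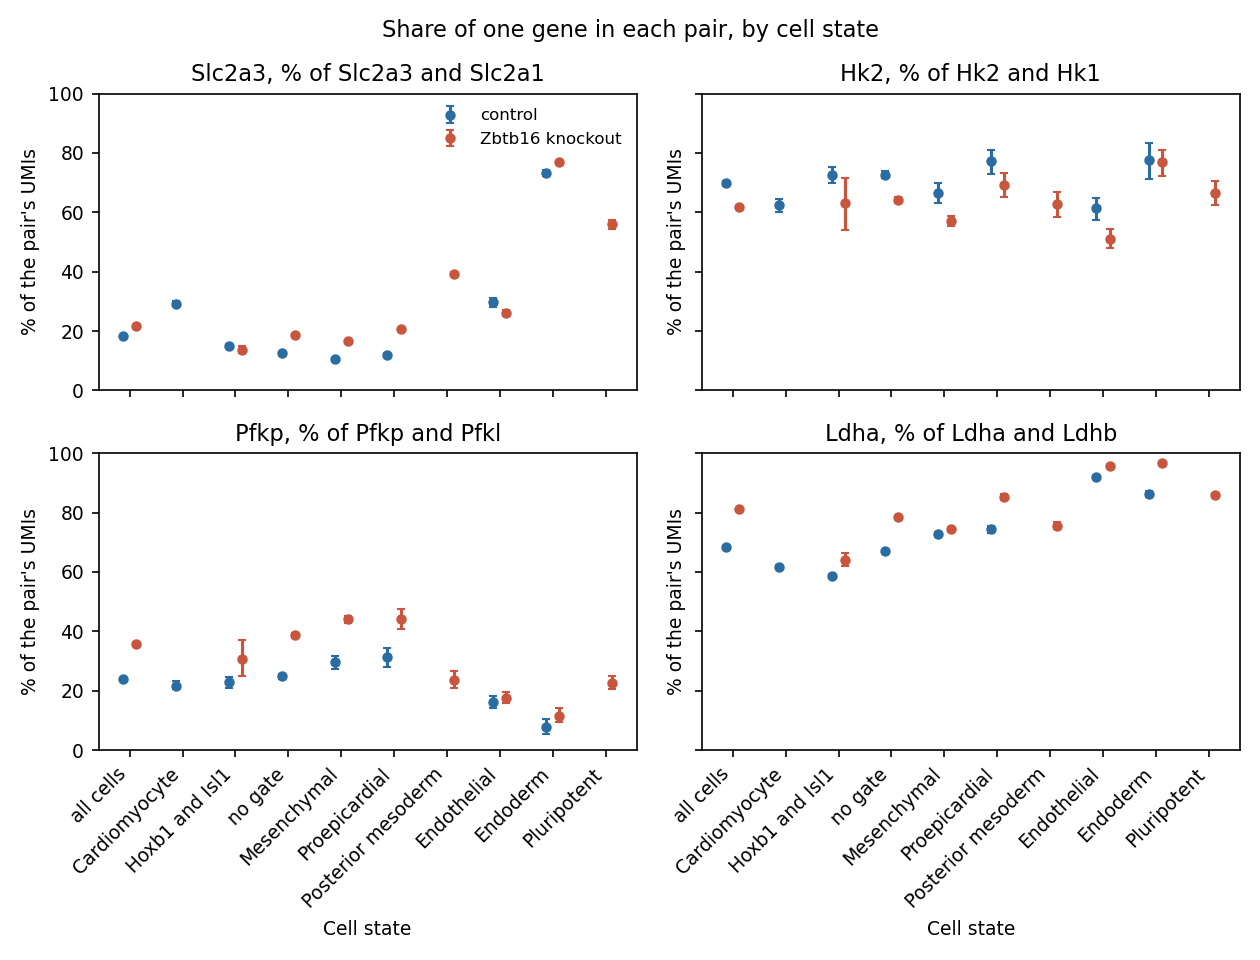
Share of a pair's UMIs held by Slc2a3, Hk2, Pfkp and Ldha, in percent, by state and library, with exact 95% intervals. Slc2a3 exceeds 70% in endoderm cells, and Ldha runs from 58.6% in control Hoxb1-gated cells to 96.6% in knockout endoderm cells.

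Across the 17 sums of states by library with at least 50 cells, the genes most like each member were found by Pearson's r of log2 of CPM plus 1 among 5045 genes with at least 50 CPM in a sum. These sums share 2 libraries, so r is given as a description. Those most like Ldha were Aldoa, the glycolytic aldolase (r = 0.980), Pgk1, phosphoglycerate kinase (0.95), and Ddx56 (0.937). Those most like Slc2a1 were Steap2 (0.955), Ndrg1 (0.951) and Rnd3 (0.95), and those most like Slc2a3 were Jade3 (0.947), Pik3cb (0.944) and Lman2 (0.930). For Ldhb they were Nsrp1 (0.934), Diablo (0.905) and Flywch1 (0.901), for Pkm Mrpl24, Exosc5 and Dpy30, and for Pfkl the ribosomal protein genes Rplp2, Rps12 and Rpl4. For Hk2 the 3 included Pgam1, a glycolytic mutase (0.834), and the values for Hk1 and Pfkp ran from 0.846 to 0.917.

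The promoters of Ldha, Aldoa and Pgk1 are shown because these 3 genes had like patterns over states, beside those of Slc2a1, which was higher in the knockout library, and Ldhb, which was lower. Each is 300 bases, from 250 before to 50 after the annotated start, from RefSeq on GRCm38.p6, and capitals mark the letters ACGTG, a core of the hypoxia response element, or their reverse complement CACGT, with overlapping matches counted. The windows are chr4:119108495-119108794 (+) for Slc2a1, chr7:46845554-46845853 (+) for Ldha, chr7:126799129-126799428 (-) for Aldoa, chrX:106186850-106187149 (+) for Pgk1 and chr6:142507908-142508207 (-) for Ldhb.
Ldha: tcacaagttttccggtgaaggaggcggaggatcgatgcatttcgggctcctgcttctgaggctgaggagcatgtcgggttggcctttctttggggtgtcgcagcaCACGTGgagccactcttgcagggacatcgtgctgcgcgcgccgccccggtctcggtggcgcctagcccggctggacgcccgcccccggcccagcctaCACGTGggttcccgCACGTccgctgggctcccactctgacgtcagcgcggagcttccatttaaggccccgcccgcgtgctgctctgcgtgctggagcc
Aldoa: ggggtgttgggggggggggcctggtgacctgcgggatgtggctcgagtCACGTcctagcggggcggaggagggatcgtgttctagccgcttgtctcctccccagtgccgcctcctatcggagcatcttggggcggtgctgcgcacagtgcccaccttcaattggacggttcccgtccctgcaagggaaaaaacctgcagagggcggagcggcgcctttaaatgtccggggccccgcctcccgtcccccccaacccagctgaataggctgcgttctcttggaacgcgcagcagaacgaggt
Pgk1: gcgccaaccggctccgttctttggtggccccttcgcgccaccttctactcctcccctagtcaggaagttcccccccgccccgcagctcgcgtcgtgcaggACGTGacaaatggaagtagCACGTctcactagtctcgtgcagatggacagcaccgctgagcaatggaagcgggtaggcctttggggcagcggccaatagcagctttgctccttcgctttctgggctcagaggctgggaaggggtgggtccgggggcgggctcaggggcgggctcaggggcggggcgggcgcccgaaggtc
Slc2a1: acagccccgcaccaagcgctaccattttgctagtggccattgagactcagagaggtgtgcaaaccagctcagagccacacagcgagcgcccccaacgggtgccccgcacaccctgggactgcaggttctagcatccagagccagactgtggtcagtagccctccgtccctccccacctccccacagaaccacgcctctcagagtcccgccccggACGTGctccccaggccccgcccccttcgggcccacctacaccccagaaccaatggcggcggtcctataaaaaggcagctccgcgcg
Ldhb: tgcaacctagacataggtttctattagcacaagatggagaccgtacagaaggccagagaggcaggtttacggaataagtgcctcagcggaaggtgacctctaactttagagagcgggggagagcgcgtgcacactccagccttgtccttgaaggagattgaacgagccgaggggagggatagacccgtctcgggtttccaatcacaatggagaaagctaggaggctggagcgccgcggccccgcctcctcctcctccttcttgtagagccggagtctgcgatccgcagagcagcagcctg
The Ldha window shown held 5 matches, and a second Ldha window in the table, not shown, held 0. The Aldoa window shown held 1, its other windows, not shown, 1 and 0, and the Pgk1 window 2. The Slc2a1 window held 1, 36 bases before the start, and the Ldhb window held 0. RefSeq gave 11 windows for 8 of the 9 members. Of these 11 windows 5 had at least 1 match, 1 window each for Slc2a1, Hk1, Hk2, Pkm and Ldha. Of all 32851 windows in the table, 19.6% had one. A match is a run of letters and not a measured binding site.

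The rest of the pathway was read from gene lists at 5 CPM or more in either library, where 12.7% of 10289 genes were at least 1.5-fold higher and 6.75% lower, with a median log2 ratio of 0.02. Of 14 measured glycolytic enzymes outside the members, 0 were higher and 4 were lower, with a median of -0.36. Gapdh stood at 5762 CPM among control cells and 4030 in the knockout, Pgam1 at 803 and 746, Eno1 at 572 and 446, and Aldoa at 354 and 306. The largest ratios belonged to the muscle forms, with Pgam2 at 77.9 and 3.27 CPM and Eno3 at 50.3 and 16.7 CPM. In cells with no gate Pgam2 stood at 37.2 and 2.43 CPM and Eno3 at 43.2 and 17.7 CPM. Proepicardial cells differed least, with Pgam2 at 21.5 and 14.3 CPM and Eno3 at 28.1 and 20.9 CPM. The libraries also differed in cardiomyocyte-gated cells as given above, and the part of this in these ratios was not tested. Of the other glucose transporters, 2 of 8 were measured, and 1, Slc2a8, was lower (11.8 and 7.11 CPM); it is named after its value was seen. The pentose phosphate list had 7 of 7 measured and 0 past 1.5-fold either way, with a median of -0.28 and Tkt, transketolase, at 261 and 215 CPM.

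Among 15 measured genes of lactate and pyruvate handling, 2 were higher and 1 lower, with a median of 0.01. Bsg, the chaperone of lactate carriers, stood at 817 and 903 CPM, and the lactate carrier Slc16a1 at 72.7 and 91.1 CPM. Pdk1, a kinase that inhibits pyruvate dehydrogenase, stood at 7.93 CPM among control cells and 15.6 CPM among knockout cells. Pdp1, a phosphatase that reverses this inhibition, was the other higher gene, at 4.16 and 6.91 CPM, and the lower one was the kinase gene Pdk2, at 5.10 and 3.05 CPM, named after its value was seen. Of 15 measured regulators, 4 were higher and 0 lower. The regulator left out by the limit of 5 CPM, Ppargc1a, stood at 4.56 CPM among control cells and 0.12 CPM among knockout cells. Epas1, which encodes a hypoxia-inducible factor subunit, stood at 4.98 and 28.6 CPM, and Txnip, which encodes an arrestin that promotes removal of glucose transporters from the surface, at 98.7 and 175 CPM. The splicing factor genes Ptbp1, Hnrnpa1 and Hnrnpa2b1, known to act on Pkm exon choice, differed by less than 1.5-fold (Ptbp1 stood at 218 and 221 CPM). Of 13 measured hypoxia response genes 5 were higher and 2 lower, so the list did not move one way: Ndrg1 stood at 14.3 and 51.7 CPM and Adm at 12.5 and 2.03 CPM. Of 9 glycogen genes 0 were higher and 1 lower, Gyg, the glycogenin primer, at 330 and 77.1 CPM.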

How the data were processed

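Droplet libraries were made with an MGI DNBelab C Series kit, per the labels' protocols. The authors deposited raw UMI counts per gene and barcode for 1 control and 1 knockout library, unfiltered, in matrices written by Cell Ranger 4, per the file headers. The submitters' processing notes name Cell Ranger, R 4.1.1, GRCm39 and mm39. Not given in the sources used here is how reads shared with pseudogenes (Ldha, Gapdh and Pkm have such copies) were counted. Kept cells held 94.8% of the 308465930 control UMIs and 96.0% of the 357324373 knockout UMIs. No doublet caller was run, and doublets were not removed. UMIs were summed over cells and scaled to CPM, with ratios of CPM plus 1, exact Poisson intervals for sums and exact Clopper-Pearson intervals for shares (scipy 1.17.1). The gate cuts, from 250 CPM for posterior mesoderm to 2500 CPM for cardiomyocyte markers, were set after the marker sums were seen. The count method was tested on simulated data. Length and GC content came from GENCODE M21, with lowess correction (statsmodels 0.14.6). Named genes are the 9 members, per list up to 4 genes of highest mean CPM and the 2 of largest ratio, and the 3 genes most like each member. Members and lists were chosen with earlier results of these data known. Alternatives covered UMI and mitochondrial limits, equal weight per cell, a depth range, edgeR 4.0.16 TMM scaling, the prior, the filter on low values, and the gates.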

Additional observations from a re-analysis of the deposited data

How the results depend on the processing

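Over all cells, 107 of 108 alternative values of the members stayed on their side of 1.5-fold, and 1 (Hk1, 0.60 without all cells passing the cardiomyocyte gate) gained it. Within states, 287 of 306 stayed, 12 lost it, 7 gained it and 0 reversed a call. Counts of all genes depended on the filter: 533 higher and 170 lower became 1147 and 522 from 10 CPM, and 1550 and 1081 with no filter. The length and GC correction gave 336 higher. The median log2 ratio of the members was 0.10 with at most 5% mitochondrial UMIs. The knockout minus control difference in shares kept its direction over all cells. In percentage points, for Slc2a3, Hk2, Pfkp and Ldha where they moved beyond their interval, it was 5.54 for Slc2a3, 11.0 for Pfkp and 13.2 for Ldha from 30000 UMIs. With at most 5% mitochondrial UMIs it was 3.16 for Slc2a3 and 14.2 for Ldha. With equal weight per cell it was 2.39 for Slc2a3, 13.8 for Pfkp and 13.4 for Ldha. In cells of 30000 to 45000 UMIs it was 4.95 for Slc2a3, -4.87 for Hk2, 14.2 for Pfkp and 14.5 for Ldha. Without all cells passing the cardiomyocyte gate it was 4.46 for Slc2a3, -9.94 for Hk2 and 10.7 for Ldha. Below 100 CPM of cardiomyocyte markers it was -9.25 for Hk2, 9.64 for Pfkp and 3.37 for Ldha. Without all cells passing the endoderm gate it was 5.18 for Slc2a3. Both settings were added after the data were seen. With gate cuts doubled, the difference reversed to -0.27 for Ldha in mesenchymal cells and to -7.70 for Slc2a3 in proepicardial cells. The cause of these moves was not tested. No paired analysis was possible because either group consists of a single library, with no test made. Doubled cuts gave no value for Hoxb1-gated cells, with 7 in the knockout library. The limit of 5% mitochondrial UMIs gave no value for endoderm cells, for want of cells. Their median mitochondrial share was 4.85% in the control and 6.03% in the knockout.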

Other observations

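In the knockout library 29 cells passed the haematopoietic gate, led by the embryonic globin gene Hba-x, and in the control library 0 did. In these cells Hk1 stood at 85.1 CPM (71.1 to 101), Ldha at 1469 CPM (1409 to 1531) and Ldhb at 9.16 CPM (5.01 to 15.4). Ldha thus held 99.4% of the UMIs of Ldha and Ldhb, and Hk2 held 33.7% of those of Hk1 and Hk2 (27.1 to 40.8). With under 50 cells and no control cells they entered no comparison.

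Cell by cell, after thinning to 15000 UMIs, Slc2a1 and Slc2a3 had a Spearman rho of 0.31 over 6354 control cells and 0.44 over 9449 knockout cells. For Slc2a1 and Ldhb it was -0.37 and -0.18, and for Pkm and Ldha 0.33 and 0.35. Cells of a library share its free RNA and its mix of states, and the values are given as a description. Among the other pairs, the value largest in size was 0.20, for Pfkl and Ldha in the control.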
